A study of Mus musculus with 31 samples.

Results

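The comparison described here set the forebrain hemisphere of 5-day-old mice 3 h after hypoxia-ischemia (HI) against that of control mice of the same age. It comprised 3 of the 31 two-color arrays of the series, chosen by their titles as the HI arrays collected at 3 h. The animals were NMRI mice. Pups had the right carotid artery permanently tied under isoflurane, recovered with the mother and then breathed air low in oxygen (the Rice and Vannucci model), and the delay was counted from the end of hypoxia. The HI mice received no MgSO4 according to the titles and the study's methods, whereas a treatment label of the same samples names MgSO4 (600 mg/kg). The titles were followed. Control mice came from the same litters, were collected at the same time and underwent no intervention, although a label gives their treatment as PBS. They were not sham-operated, so that HI cannot be told apart from anesthesia, surgery and handling.

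Each array carried 2 RNA pools. The Cy5 pool was made from HI mice and the Cy3 pool from control mice, with 6 animals per pool (3 males and 3 females according to the labels, sex-matched according to the methods). The 3 arrays were taken as replicates, as their titles number them, and each value below is the log2 of Cy5 over Cy3 signal. A log2 ratio of 0 stands for equal signals and a ratio of 1 for 2-fold higher signal after HI. No array had its dyes exchanged, so the dye effect of a probe was part of its ratio. The reference without HI was 4 arrays of mice that received MgSO4 alone (600 mg/kg), labeled the same way and collected at 3 h. The 3 HI arrays collected at 12 h served as the later time. Where all 19 arrays of MgSO4 alone are named, those collected at 6, 12 and 24 h are included. The signal was well above background in 62.2% to 65.9% of probes in the Cy3 channel and in 61.3% to 63.3% in the Cy5 channel. The ratios of the 3 arrays correlated with each other across probes at Pearson r of 0.571 to 0.619, a description over probes that share the same pools. Arrays 1 and 2 lay on the same slide and array 3 on another, scanned on the same day. A hemisphere holds many cell types, and in such bulk RNA fewer cells of a type and less RNA per cell cannot be told apart.

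The early response to loss of oxygen and blood flow in the brain is carried by several known programs. Calcium entry, MAP kinases and CREB switch on immediate early genes, whose products include the AP-1 proteins of the Fos and Jun families and the zinc finger proteins of the Egr and Klf families. Hypoxia-inducible factors (HIF) raise glycolytic and angiogenic genes when oxygen falls, heat shock factor raises chaperones, and the integrated stress response raises Atf4 targets. NF-kB and AP-1 drive chemokines that call leukocytes, and interferon-induced genes form a distinct antiviral program.

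Promoters of genes at the head of the response are shown to place known control sequences beside the values. They were read from RefSeq (GRCm38.p6) on the strand of the gene, 5′ to 3′, as the 200 bases before the start site. In the first set, of immediate early genes, capitals mark the core of the cyclic AMP response element (TGACG, or CGTCA when it lies on the opposite strand). Fos held this core 129 and 66 bases before its start, Fosb 60 bases, Junb 106 bases and Atf3 7 bases before it. Nr4a1 held it 69 and 40 bases and Npas4 179 and 169 bases before the start.
Fos (chr12:85473690-85473889, plus strand): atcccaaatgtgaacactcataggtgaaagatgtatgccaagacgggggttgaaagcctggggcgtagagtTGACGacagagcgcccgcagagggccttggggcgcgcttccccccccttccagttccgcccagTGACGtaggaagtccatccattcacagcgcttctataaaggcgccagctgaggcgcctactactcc
Fosb (chr7:19310046-19310245, minus strand): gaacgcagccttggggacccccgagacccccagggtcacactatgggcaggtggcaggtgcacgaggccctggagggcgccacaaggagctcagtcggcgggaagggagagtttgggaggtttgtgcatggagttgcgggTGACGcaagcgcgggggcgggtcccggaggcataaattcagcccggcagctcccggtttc
Junb (chr8:84978749-84978948, minus strand): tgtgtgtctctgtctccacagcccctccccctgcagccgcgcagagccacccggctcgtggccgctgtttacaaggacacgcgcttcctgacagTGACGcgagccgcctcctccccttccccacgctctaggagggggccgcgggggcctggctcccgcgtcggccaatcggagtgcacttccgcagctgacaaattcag
Atf3 (chr1:191183334-191183533, minus strand): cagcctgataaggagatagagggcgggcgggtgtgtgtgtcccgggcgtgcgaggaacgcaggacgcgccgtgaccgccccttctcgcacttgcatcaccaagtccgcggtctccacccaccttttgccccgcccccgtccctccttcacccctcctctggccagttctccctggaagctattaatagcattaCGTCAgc
Nr4a1 (chr15:101266646-101266845, plus strand): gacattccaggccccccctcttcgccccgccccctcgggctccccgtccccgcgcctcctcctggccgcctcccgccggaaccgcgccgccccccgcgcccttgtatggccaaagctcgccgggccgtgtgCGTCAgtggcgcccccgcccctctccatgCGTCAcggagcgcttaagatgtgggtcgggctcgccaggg
Npas4 (chr19:4989972-4990171, minus strand): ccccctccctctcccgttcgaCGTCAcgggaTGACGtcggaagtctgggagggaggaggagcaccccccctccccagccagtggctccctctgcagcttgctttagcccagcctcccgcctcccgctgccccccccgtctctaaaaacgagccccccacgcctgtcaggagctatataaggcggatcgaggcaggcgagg

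The second set belongs to the inflammatory and stress programs. In Cxcl10 capitals mark an AP-1 site (TGANTCA) 74 bases before the start and the NF-kB sites. In Hspa1a they mark a heat shock element (GAANNTTC) 104 bases before the start. In Slc2a1 and Ddit4 they mark the core of the hypoxia response element (ACGTG), 36 and 187 bases before the start.
Cxcl10 (chr5:92348890-92349089, minus strand): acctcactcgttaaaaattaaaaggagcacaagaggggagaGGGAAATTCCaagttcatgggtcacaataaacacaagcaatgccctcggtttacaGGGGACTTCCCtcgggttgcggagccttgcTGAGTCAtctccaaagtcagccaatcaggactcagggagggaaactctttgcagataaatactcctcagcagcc
Hspa1a (chr17:34972157-34972356, minus strand): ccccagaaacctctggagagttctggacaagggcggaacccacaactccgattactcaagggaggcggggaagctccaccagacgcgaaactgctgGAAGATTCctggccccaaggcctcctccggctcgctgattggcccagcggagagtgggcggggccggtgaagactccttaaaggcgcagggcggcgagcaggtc
Slc2a1 (chr4:119108545-119108744, plus strand): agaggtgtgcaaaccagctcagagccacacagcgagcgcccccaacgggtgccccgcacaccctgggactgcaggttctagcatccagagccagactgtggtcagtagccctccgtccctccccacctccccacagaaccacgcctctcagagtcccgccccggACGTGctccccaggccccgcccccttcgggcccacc
Ddit4 (chr10:59951771-59951970, minus strand): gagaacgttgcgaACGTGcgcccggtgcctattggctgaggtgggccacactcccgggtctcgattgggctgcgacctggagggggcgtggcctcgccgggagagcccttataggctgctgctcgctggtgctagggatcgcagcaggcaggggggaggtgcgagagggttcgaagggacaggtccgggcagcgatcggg

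Each motif was searched for on both strands of the 250 bases before every listed start, and 11575 of the 14564 genes tested matched a RefSeq promoter. The core TGACG lies within the full element TGACGTCA, and ACGTG can overlap both. TGACG was present in 19.8% of the promoters of all 27025 genes, in 28.4% of genes tested, in 29.3% of 270 genes called higher after HI and in 40.3% of the 77 of these that were higher by 2-fold or more. The AP-1 site was present in 7.82% of all genes, in 5.87% of genes tested and in 9.26% of those called higher. NF-kB sites were found in 8.23%, 10.7% and 15.6% of the same sets, and the ACGTG core in 18.5%, 23.8% and 26.7%. A match is only a match of letters in this window. Ccl4, Ccl2 and Arc had no entry in the promoter table.

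With a minimum of 1.5-fold, more rises than falls were called after hypoxia-ischemia. Of 24690 probes tested, 891 (3.61%) were called different from control, a call being an adjusted p under 0.05 in limma's test against 0 and a change of 1.5-fold or more. Of these, 587 (2.38%) were called higher and 304 (1.23%) lower. With each gene represented by its brightest probe, 341 of 14564 genes (2.34%) were called higher and 199 (1.37%) lower. These shares are the reference for the counts called in each list below. All 341 and all 199 had the same sign on each of the 3 arrays, which a call on these same arrays all but requires. The median log2 ratio over all genes was -0.03, and 7998 of the 14564 genes had a negative mean. Without the fold minimum, 1391 probes passed as higher and 1537 as lower, so the excess of rises depended on that minimum. The balance of rises and falls also depended on the scaling. After background correction by normexp and loess of the unprocessed signals, 334 probes were called higher and 23 lower. After normexp and median centring, which moved the median of all genes to 0.34, 4439 were called higher and 4 lower. The number of probes called fell to 8 without array 1, 440 without array 2 and 145 without array 3.

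The AP-1 protein gene Fos showed the largest rise of all genes. Its log2 ratio was 5.57, 5.86 and 5.12 on arrays 1 to 3, a mean of 5.52 (SD 0.37, n = 3) or 45.8-fold, with an adjusted p of 0.00361. In raw terms its Cy3 signal lay between 70.1 and 105 and its Cy5 signal between 2953 and 6138. On the 4 arrays of MgSO4 alone the ratio lay between -0.33 and 0.18, so no array overlapped between the groups, and the difference of 5.67 passed the test (adjusted p = 0.000136). Fos, Atf3, Cxcl10 and Ccl4 were taken as markers of this comparison with earlier results of these data known, so their values are given as a description. Atf3, a stress-induced member of the ATF/CREB family, had ratios of 3.48, 3.69 and 3.53 and a mean of 3.57 (SD 0.11, adjusted p = 0.00158). Of all 4 markers, Atf3 varied least between the arrays.

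**Figure D1:**
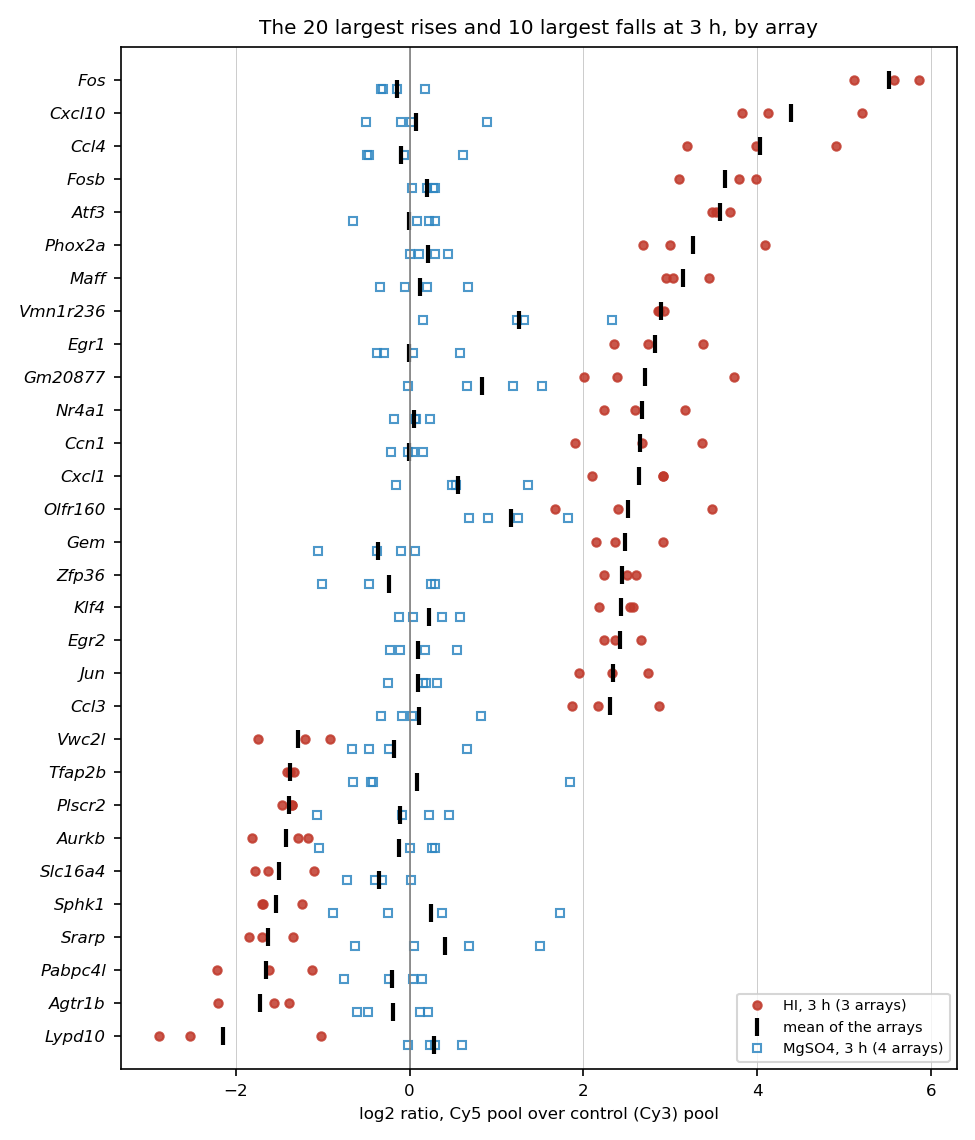
Log2 ratio of the Cy5 pool over the control pool on each HI array at 3 h (circles) and each array of MgSO4 alone at 3 h (squares) for the 20 largest rises and the 10 largest falls, with the mean of the arrays as a black bar. Fos lies between 5.12 and 5.86 on the HI arrays and between -0.33 and 0.18 on the MgSO4 arrays, whereas Vmn1r236, Gm20877 and Olfr160 have positive means on both.

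Genes of the AP-1, ATF and CREB family rose widely. Of 21 members, all tested, 11 were called higher and none lower, against 2.34% and 1.37% of all genes, and their median log2 ratio was 0.66. The partner proteins of Fos took part to unequal extents. Fosb had ratios of 3.99, 3.79 and 3.10 (mean 3.63, SD 0.47, adjusted p = 0.00664) and Jun ratios of 2.33, 2.75 and 1.95 (mean 2.34, SD 0.40, adjusted p = 0.013). Jund, which most cells express at rest, rose less, with ratios of 0.85, 0.93 and 0.78 (mean 0.85, adjusted p = 0.014). For Junb the Cy3 signal was not well above background on any array, so its ratios of 1.80, 2.43 and 2.54 give only a bound, at least 2.15-fold higher (adjusted p = 0.0137). Such bounds set the mean of the bright channel against the higher of the dim probe's own signal and the lowest signal well above background on each array, and they are open to dye bias.

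Maff, a small Maf protein that pairs with AP-1 partners, had ratios of 3.45, 3.03 and 2.95 (mean 3.14, SD 0.27, adjusted p = 0.00511). Fosl1, another Fos family member, was measured above background in control RNA on only 1 array and had ratios of 1.46, 0.66 and 0.70 (mean 0.94, adjusted p = 0.0426). The remaining called members were Crem, Atf4 and Mafk, with means of 0.83, 0.75 and 0.66. Relative to MgSO4 alone at 3 h, 7 of the 21 were called higher, against 0.435% of all genes. They were Fos, Fosb, Jun, Junb, Jund, Atf3 and Maff. The count called against control was 3, 7 or 6 without array 1, 2 or 3. Of 9 called members with a promoter entry, 7 held the core TGACG (Atf3, Atf4, Fos, Fosb, Junb, Maff and Mafk) and 0 held the AP-1 site.

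The other immediate early transcription factors had the highest median of all lists, 1.08 over 18 genes tested of 20 listed. None of the 18 had a negative mean, against 7998 of the 14564 genes tested. Of the 18, 12 were called higher, against 2.34% of all genes. Among the zinc finger factors, Egr1 had ratios of 2.74, 3.38 and 2.35 (mean 2.83, SD 0.52, adjusted p = 0.014), Egr2 ratios of 2.66, 2.36 and 2.23 (mean 2.42, SD 0.22, adjusted p = 0.00511) and Egr4 ratios of 0.73, 1.61 and 1.07 (mean 1.14, adjusted p = 0.0332). Egr3 was not well above background in either channel and was not tested. Klf4, a Krüppel-like factor, had ratios of 2.53, 2.57 and 2.18 (mean 2.43, SD 0.22, adjusted p = 0.00511). Nr4a1, an orphan nuclear receptor induced by calcium and cyclic AMP, had ratios of 2.60, 3.17 and 2.24 (mean 2.67, SD 0.47, adjusted p = 0.0135).

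Npas4, a factor largely restricted to neurons and driven by calcium entry, was the most uneven of the called members. Its ratios were 1.69, 3.44 and 1.28 (mean 2.14, SD 1.15, adjusted p = 0.0459). Array 2 gave the highest value of the 3 for Npas4, Egr1, Egr4 and Nr4a1 alike. Ier2 had ratios of 2.17, 2.58 and 2.07 (mean 2.27, adjusted p = 0.00678) and Csrnp1 ratios of 1.97, 1.79 and 1.68 (mean 1.82, adjusted p = 0.00511). The other called members were Btg2, Klf2, Nfil3 and Srf, with means of 1.104, 1.06, 0.82 and 0.80. Myc, a growth-related immediate early gene, did not pass, with ratios of 0.29, -0.21 and -0.01. All 10 called members with a promoter entry held TGACG. Against MgSO4 alone 8 of the 18 were called higher, beside 0.435% of all genes.

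Effector genes downstream of neuronal activity followed with a median of 0.60 over 21 genes tested. Of these, 9 were called higher and none lower, against 2.34% and 1.37% of all genes. Arc, which binds the cytoskeleton at synapses, had ratios of 1.62, 1.81 and 1.21 (mean 1.55, SD 0.31, adjusted p = 0.014). Gem, a small GTPase that restrains calcium channels, had ratios of 2.92, 2.36 and 2.15 (mean 2.48, SD 0.40, adjusted p = 0.0115). Ccn1, a secreted matrix protein, had ratios of 1.91, 3.37 and 2.67 (mean 2.65, SD 0.73, adjusted p = 0.0187). Growth arrest genes that respond to stress were included. Gadd45b had ratios of 2.43, 2.23 and 1.77 (mean 2.14, adjusted p = 0.0117) and Gadd45g ratios of 1.16, 1.19 and 0.88 (mean 1.08, adjusted p = 0.014).

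Zfp36 encodes tristetraprolin, which destabilizes cytokine mRNAs. Its ratios were 2.51, 2.61 and 2.23, but its control signal was not well above background on any array, so it was at least 1.91-fold higher (adjusted p = 0.00511). With normexp background correction (offset 50) and median centring in place of the authors' processing, its mean was -0.03 in place of 2.45. Its processed signals, 3.8 to 5.63 in Cy3 and 18.1 to 34.3 in Cy5, lay under that offset. The direction of this dim probe thus depended on the processing. Trib1, Sik1 and Per1 had means of 0.95, 0.69 and 0.61. Ptgs2, which makes prostaglandins, had ratios of 1.72, 1.62 and 1.60 with neither channel well above background, and was not tested. The 21 genes gave 0, 7 or 6 calls without array 1, 2 or 3, and with loess on the unprocessed signals 7.

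Feedback inhibitors of MAP kinases rose as well. Of 13 dual specificity phosphatases and related inhibitors tested, 6 were called higher and none lower, against 2.34% and 1.37% of all genes. All 13 had a positive mean (median 0.57), against 6566 of the 14564 genes tested. Dusp1, which inactivates p38 and JNK, had ratios of 1.61, 2.49 and 1.38 (mean 1.83, SD 0.59, adjusted p = 0.0239). Dusp4 had ratios of 1.28, 1.38 and 1.16 (mean 1.28, SD 0.11, adjusted p = 0.00787) and Dusp16 ratios of 1.11, 0.97 and 1.01 (mean 1.03, adjusted p = 0.0108). These were also called above MgSO4 alone. Dusp10, Dusp14 and Dusp6, the last a phosphatase of ERK, had means of 0.97, 0.83 and 0.59. There were 0, 4 or 2 calls without array 1, 2 or 3.

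**Figure D2:**
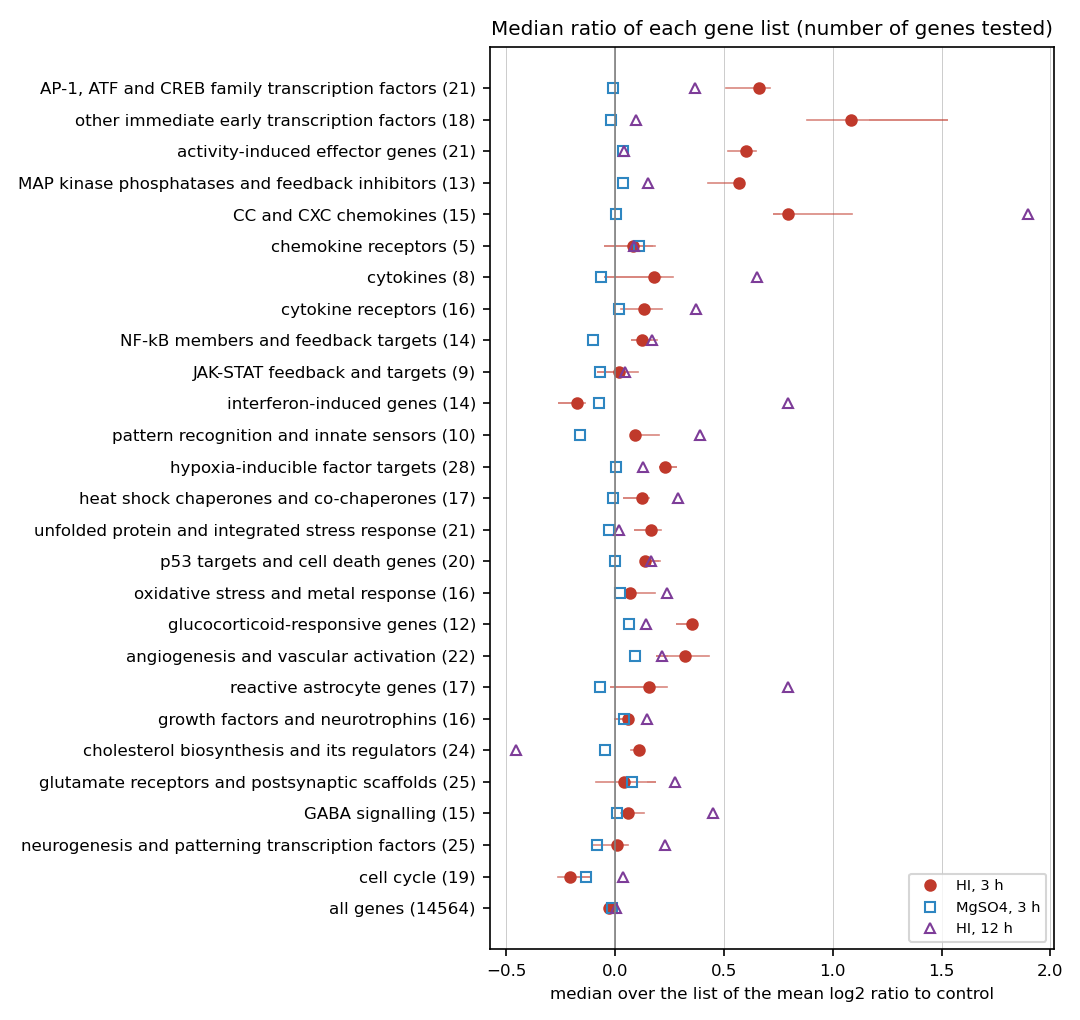
Median over each gene list of the mean log2 ratio to control at 3 h after HI (circles, with a line spanning the medians of the 3 arrays), 3 h after MgSO4 alone (squares) and 12 h after HI (triangles), with the number of genes tested in parentheses. The immediate early lists lie at 0.57 to 1.08 at 3 h after HI and at -0.02 to 0.04 after MgSO4 alone, and the chemokines move from 0.79 at 3 h to 1.90 at 12 h.

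Chemokines were the inflammatory genes that changed most. Of 20 listed, 15 were tested, with a median of 0.79. Of the 15, 9 were called higher and none lower, against 2.34% and 1.37% of all genes. Cxcl10, a ligand of the receptor CXCR3, had ratios of 5.21, 3.83 and 4.12 (mean 4.39, SD 0.73, adjusted p = 0.0111), although control RNA was well above background on only 1 array. Ccl4, an attractant of monocytes and T cells, had ratios of 4.91, 3.99 and 3.20 (mean 4.03, SD 0.86, adjusted p = 0.014). On the 4 MgSO4 arrays these genes lay between -0.50 and 0.89 and between -0.49 and 0.62, so that neither overlapped with the HI arrays.

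Among related CC chemokines, Ccl3 had ratios of 2.87, 2.17 and 1.87 (mean 2.30, SD 0.52, adjusted p = 0.014) and Ccl5 ratios of 0.51, 0.43 and 0.94 (mean 0.63, adjusted p = 0.0418). Ccl5 was close to background and turned to -0.12 with normexp and median centring. The monocyte attractants differed from each other. Ccl2 had ratios of 2.31, 2.05 and 2.05 (mean 2.14, SD 0.15, adjusted p = 0.00511) and Ccl7 ratios of 1.73, 0.77 and 1.77 (mean 1.42, adjusted p = 0.0326), whereas Ccl12 gave 0.71, 0.00 and 0.74 and did not pass (adjusted p = 0.117). Attractants of neutrophils were called as well. Cxcl1 had ratios of 2.92, 2.91 and 2.10 (mean 2.64, SD 0.47, adjusted p = 0.0137), with control RNA above background on 1 array, and Cxcl5 ratios of 1.09, 0.73 and 0.75 (mean 0.86, adjusted p = 0.0199). On the MgSO4 arrays at 3 h Cxcl1 had a mean of 0.56, with 1.37 on array 1. Its difference between the treatments at 3 h did not pass (adjusted p = 0.0723). Against all 19 MgSO4 arrays, which mix delays from 3 to 24 h, Cxcl1 was called (difference 2.44, limma adjusted p = 7.95e-05).

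The remaining called chemokine was Ccl9, with a mean of 0.79. Cxcl10, Ccl4, Ccl3 and Ccl2 were called higher than after MgSO4 alone. The number called against control was 1, 8 or 5 without array 1, 2 or 3. Of 5 chemokine receptors tested none was called, Cxcr4 having a mean of 0.01, and 6 others of the 11 listed were not well above background in enough arrays. Of 4 called chemokines with a promoter entry, Ccl9, Cxcl1 and Cxcl10 held an NF-kB site.

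Cytokines themselves were mostly dim. Of 20 listed, 8 were tested and 1 was called, Csf1, a survival factor of microglia, with ratios of 0.91, 0.31 and 0.68 (mean 0.63, adjusted p = 0.0456). Il6 had ratios of 1.86, 0.02 and 3.64 (mean 1.84, SD 1.81, adjusted p = 0.133) and did not pass, array 2 being near 0 and array 3 the highest. Il1b had ratios of 1.94, 0.42 and 1.33 (mean 1.23, adjusted p = 0.0588), control RNA not being well above background on any array, and of the fits that left out an array it passed only in that without array 2 (adjusted p = 0.0319). Tnf and Il1a were not well above background in either channel and were not tested.

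Receptors were led by Tnfrsf12a (Fn14), the receptor of the cytokine TWEAK. Its ratios were 2.64, 1.88 and 1.94 (mean 2.15, SD 0.42, adjusted p = 0.014), and it was also above MgSO4 alone. Of 16 cytokine receptors tested, 2 others were called, Il1r1 (mean 0.90) and Il6ra (mean 0.68). Without array 1, 2 or 3 the count was 0, 2 or 1.

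Signaling genes downstream of these ligands gave 1 rise in each of the lists below, where 2.34% of all genes were called higher. A missing call does not show that the other members were unaltered. Of 18 NF-kB members and feedback targets listed, 14 were tested. Bcl3, an atypical IkB protein, was the only one called, with ratios of 1.46, 0.60 and 1.85 (mean 1.30, adjusted p = 0.0423). Nfkb1, Nfkb2 and Rela had means of -0.14, 0.27 and -0.19. Of 9 JAK-STAT feedback genes, Socs3, which blocks signaling by the Il6 receptor, was the only one called. It had ratios of 1.81, 1.78 and 1.52 (mean 1.71, SD 0.16, adjusted p = 0.00592). Socs1, Socs2 and Cish had means of 0.02, -0.07 and -0.15. Bcl3 was no longer called without array 1 or 3, and Socs3 without array 1.

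Interferon-induced genes did not join the chemokines. Of 14 tested, none was called higher and 2 were called lower, against 2.34% and 1.37% of all genes. A negative mean was found in 12, against 7998 of the 14564 genes tested, and the list median was -0.18. With normexp and median centring of unprocessed signals the list median was 0.10, where that of all genes was 0.34. Usp18, which removes the ubiquitin-like protein ISG15, had ratios of -0.88, -0.64 and -0.54 (mean -0.68, adjusted p = 0.0251), and was well above background after HI on only 1 array. Ifih1, a sensor of double-stranded RNA, had ratios of -0.76, -0.71 and -0.34 (mean -0.60, adjusted p = 0.0377). Ifit2, Ifit3 and Isg15 had means of -0.23, -0.01 and -0.26 and did not pass. Neither fall remained a call with loess on the unprocessed signals.

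Of 10 innate sensors tested, 1 was called higher and 1 lower, against 2.34% and 1.37% of all genes. Cd14, the co-receptor of endotoxin sensing, had ratios of 1.36, 0.90 and 1.14 (mean 1.14, SD 0.23, adjusted p = 0.0148). Tlr1 had ratios of -0.65, -0.52 and -0.84 (mean -0.67, adjusted p = 0.0241), but was no longer called with loess on the unprocessed signals. Tlr2 and Tlr4 had means of 0.41 and -0.19 and did not pass. The median of the 10 sensors tested was 0.09.

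**Figure D3:**
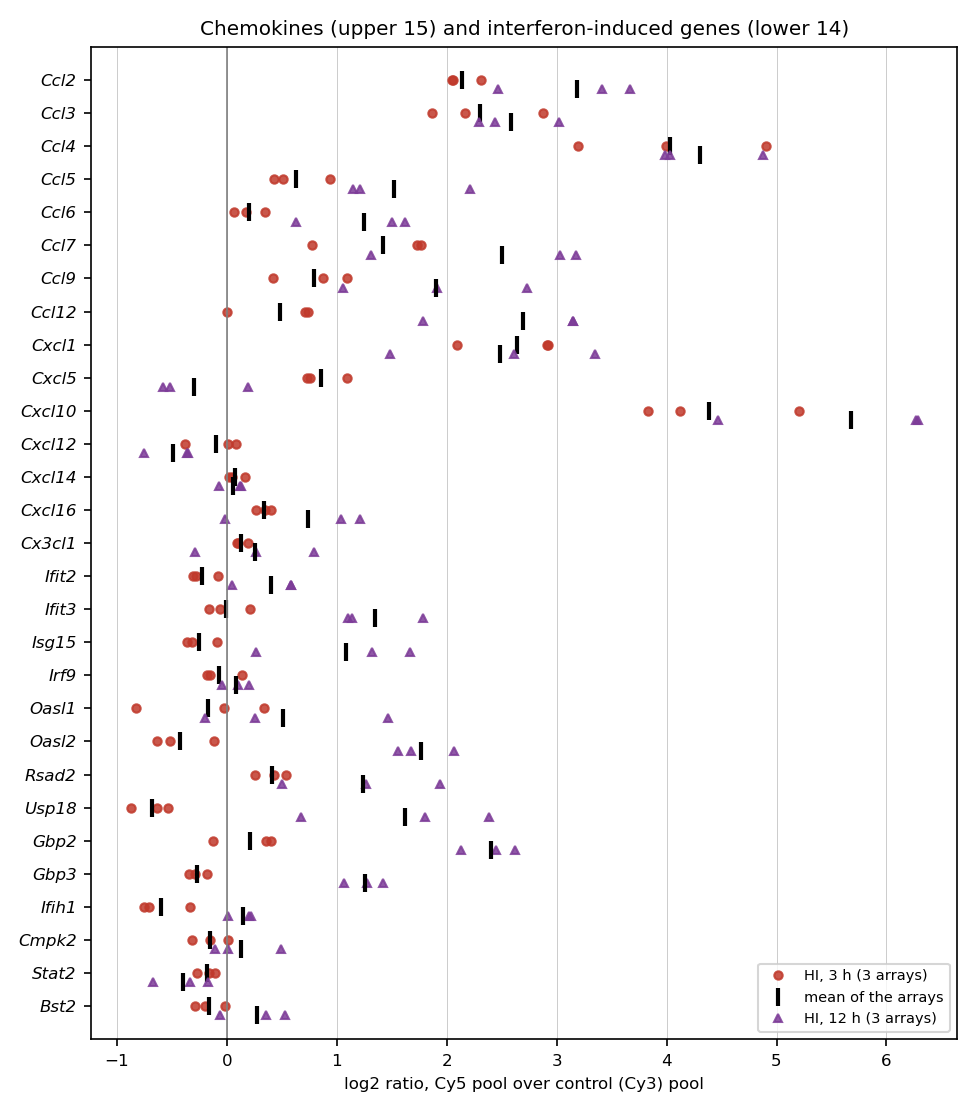
Log2 ratio to control of each tested chemokine and interferon-induced gene on the HI arrays at 3 h (circles) and 12 h (triangles), with means as black bars. Cxcl10 and Ccl4 are high at both times, whereas Oasl2, Gbp2 and Usp18 have means of -0.43, 0.21 and -0.68 at 3 h and of 1.77, 2.40 and 1.62 at 12 h.

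Targets of hypoxia-inducible factors changed in part. Of 28 tested, 25 had a positive mean (median 0.23), against 6566 of the 14564 genes tested. Among the 28, 7 were called higher and none lower, against 2.34% and 1.37% of all genes. Adm, the vasodilator peptide adrenomedullin, had ratios of 2.39, 2.42 and 1.74 (mean 2.18, SD 0.38, adjusted p = 0.0137). Vegfa, the main angiogenic growth factor, had ratios of 1.19, 1.17 and 0.91 (mean 1.09, adjusted p = 0.014). The glucose transporter gene Slc2a1 had ratios of 1.37, 0.97 and 1.04 (mean 1.12, adjusted p = 0.014). Among glycolytic genes, hexokinase Hk2 had ratios of 1.07, 0.99 and 0.77 (mean 0.94, adjusted p = 0.014) and Pfkfb3 ratios of 0.74, 0.64 and 0.62 (mean 0.66, adjusted p = 0.0156), whereas Ldha gave -0.02, 0.00 and 0.19. Pdk1, which diverts pyruvate from mitochondria, had a mean of 0.24 and was not called.

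Ero1a, which forms disulfide bonds in the endoplasmic reticulum, had a mean of 0.63. Ddit4, an inhibitor of mTORC1, had ratios of 0.61, 0.61 and 0.54, a mean of 0.59, just above the 1.5-fold minimum. The core ACGTG was found in 6 of the 7 called promoters, all but that of Adm, against 23.8% of genes tested. On the arrays of MgSO4 alone Slc2a1 also had a positive mean, 0.46, and the HI value exceeded it by 0.66 without passing the test (adjusted p = 0.138). Adm and Vegfa were called above MgSO4 alone. The calls against control were 0, 4 or 3 without array 1, 2 or 3.

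Chaperones rose in a restricted way. Of 17 heat shock genes tested, 3 were called higher and none lower, against 2.34% and 1.37% of all genes. The list median was 0.12. Hspa1a, the inducible Hsp70, had ratios of 1.497, 1.92 and 2.25 (mean 1.89, SD 0.38, adjusted p = 0.014) and was above MgSO4 alone. Its nearly identical copy Hspa1b had no probe under its own name, and the probe may read both. Hspb1 (Hsp27) had ratios of 0.82, 0.67 and 0.75 (mean 0.75, adjusted p = 0.014) and Bag3, a co-chaperone, ratios of 1.01, 0.34 and 0.65 (mean 0.67, adjusted p = 0.0477). The promoters of Hspa1a and Hspb1 held the heat shock element, present in 6.19% of genes tested. With an error shared over both HI times none of the 3 was called.

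The unfolded protein and integrated stress responses gave 4 rises and no fall among 21 genes tested (median 0.16). Of all genes, 2.34% were called higher and 1.37% lower. Gdf15, a secreted stress factor, had ratios of 3.11, 2.14 and 1.06 (mean 2.10, SD 1.02, adjusted p = 0.0407), array 1 being the highest, and a mean of -0.01 on the MgSO4 arrays. Ppp1r15a (Gadd34), which restores translation, had ratios of 1.48, 1.66 and 1.18 (mean 1.44, adjusted p = 0.014). Cebpb, a transcription factor of the stress and acute phase responses, had ratios of 1.65, 1.17 and 1.13 (mean 1.32, adjusted p = 0.0154). Chac1, which breaks down glutathione, had a mean of 0.67.

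Of 20 p53 targets and cell death genes tested, 3 were called higher and none lower, against 2.34% and 1.37% of all genes. Pmaip1 (Noxa), a BH3-only protein, had ratios of 1.46, 1.13 and 1.34 (mean 1.31, SD 0.17, adjusted p = 0.0117). The survival gene Bcl2 and Phlda1 had means of 0.67 and 0.60. Among 16 oxidative stress and metal genes, the metallothioneins Mt1 and Mt2 and heme oxygenase Hmox1 were called, with means of 0.77, 0.69 and 0.69. Mt1 had ratios of 0.80, 0.81 and 0.70. Averaging all probes of Hmox1 gave 0.52, under the minimum.

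**Figure D4:**
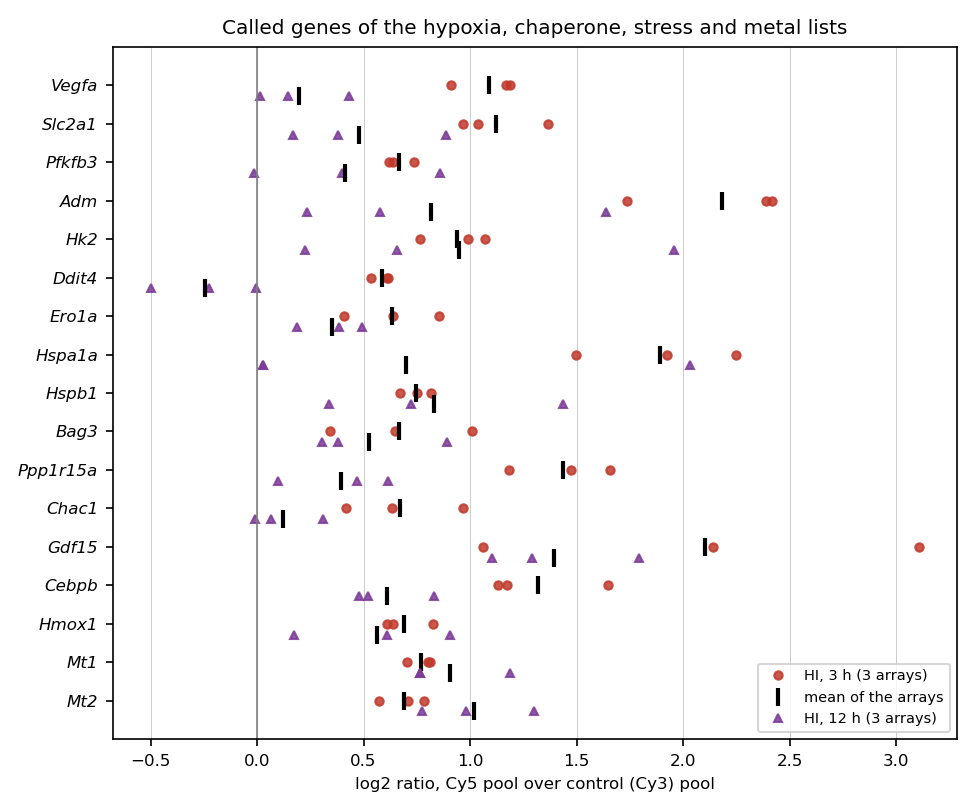
Log2 ratio to control of the called genes of the hypoxia, chaperone, stress and metal lists on the HI arrays at 3 h (circles) and 12 h (triangles), with means as black bars. Adm, Hspa1a and Gdf15 have the highest means at 3 h, 2.18, 1.89 and 2.10, and Gdf15 has the widest spread.

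Of 12 glucocorticoid-responsive genes 2 were called, Lcn2 (mean 0.85) and Mertk (mean 0.64). Fkbp5 and Tsc22d3, the best known targets, had ratios between -0.15 and 0.07 and between 0.07 and 0.37. Mertk had a mean of 0.37 on the MgSO4 arrays and did not differ from it by the test (adjusted p = 0.682). Sgk1 had ratios of 0.55, 0.41 and 0.43, a mean of 0.46 that lay under the minimum.

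Vessel genes gave 6 rises and 1 fall among 22 tested (median 0.32), against 2.34% and 1.37% of all genes. Esm1, a product of activated endothelial tip cells, had ratios of 2.37, 1.77 and 1.65 (mean 1.93, SD 0.39, adjusted p = 0.014). Plaur, the urokinase receptor, had ratios of 1.77, 1.88 and 1.66 (mean 1.77, SD 0.11, adjusted p = 0.00511) and Adamts1, a secreted protease, ratios of 1.71, 1.78 and 1.58 (mean 1.69, SD 0.10, adjusted p = 0.00511). Angpt2, which loosens vessels, had a mean of 1.25. Edn1, the vasoconstrictor endothelin, had a mean of 1.00, against 0.54 after MgSO4 alone. Plaur and Adamts1 were called above MgSO4 alone, as was Apln, a peptide hormone of vessels, whose mean against control was 0.53 and lay under the minimum. Without array 1, 2 or 3 there were 0, 7 or 4 rises.

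The fall in the vascular list was that of Sphk1, the kinase that makes sphingosine 1-phosphate. Its ratios were -1.69, -1.69 and -1.24 (mean -1.54, adjusted p = 0.014), whereas the MgSO4 arrays spread from -0.88 to 1.73 and the difference did not pass (adjusted p = 0.204). Among reactive astrocyte genes 2 of 17 were called, Emp1 (mean 0.87) and Lcn2, and Gfap gave 0.16, -0.57 and 0.42.

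Several programs gave no call, where 2.34% of all genes were called higher and 1.37% lower. None of 16 growth factors and neurotrophins, 24 cholesterol genes, 25 glutamate receptor and scaffold genes and 15 GABA genes was called in either direction, and their medians were 0.06, 0.11, 0.04 and 0.06. The cholesterol genes Hmgcs1 and Mvk had means of -0.08 and -0.28. Grin2b, an NMDA receptor subunit, had ratios of 0.32, 1.28 and 0.28, array 2 standing apart. Of 25 neurogenesis factors, Id1, an inhibitor of neuronal differentiation factors, was called higher with ratios of 1.07, 0.63 and 0.68 (mean 0.79, adjusted p = 0.0273). A missing call does not show that a gene was unaltered.

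Cell cycle genes lay mostly under 0. Of 19 tested, 17 had a negative mean (median -0.21), against 7998 of the 14564 genes tested. With normexp and median centring, however, the list median was 0.25 beside 0.34 for all genes. Aurkb, a mitotic kinase, was the only call (limma adjusted p = 0.0169). Its signal after HI was not well above background on any array and no bound above 1-fold could be given, so its size is not known. Mki67 had ratios of -0.49, 0.30 and -0.18, Top2a a mean of -0.21 and Ccnb1 a mean of -0.23.

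Markers of most cell types gave no call, beside 2.34% of all genes called higher and 1.37% lower. At that rate lists this short can give none. None of 16 microglia and macrophage markers was called, and Aif1, Cx3cr1 and P2ry12 had means of -0.04, -0.26 and -0.37. The summed signal of the microglial list was 38782 to 47726 in control pools and 41926 to 53252 after HI. Of 12 astrocyte, 13 endothelial, 15 neuronal and 10 choroid plexus markers none was called. Of 13 oligodendrocyte markers only Mbp, a myelin protein, was called (mean 0.61), and its mean over all probes was 0.32. The 7 blood markers tested all had positive means of 0.09 to 0.33 and none was called, with a list median of -0.16 on array 1, 0.28 on array 2 and 0.34 on array 3.

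Of 15 neutrophil and monocyte markers listed, 7 were tested. Of these, 3 were called higher and none lower, against 2.34% and 1.37% of all genes. S100a8 had ratios of 1.27, 0.87 and 1.13 (mean 1.09, adjusted p = 0.014), S100a9 ratios of 0.90, 0.46 and 1.08 (mean 0.82, adjusted p = 0.0343) and Retnlg ratios of 1.58, 1.11 and 2.43, at least 1.19-fold higher (adjusted p = 0.0317) because control RNA was never well above background. The direction of Retnlg turned with normexp and median centring, to -0.05. The granule genes Mpo and Elane had means of -0.64 and 0.13 and were not called, and Ngp, Ltf, Mmp8 and Mmp9 were too dim to test. The list summed to 857 to 1195 in control pools and 1247 to 1734 after HI, and its part in the chemokine values was not tested. None of the 7 was called different from MgSO4 alone. With an error shared over both HI times none of the 3 remained a call.

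Beyond the lists, the largest rises included Phox2a, a homeobox factor of noradrenergic neurons, with ratios of 4.09, 2.69 and 3.00. Control RNA was not well above background, so it was at least 3.38-fold higher (adjusted p = 0.014), and it was above MgSO4 alone. Vmn1r236 (a vomeronasal receptor) had ratios of 2.93, 2.88 and 2.86 and was at least 1.69-fold higher, Gm20877 ratios of 2.01, 2.38 and 3.74 and at least 1.42-fold, and Olfr160 (an odorant receptor) ratios of 1.68, 2.40 and 3.48 and at least 1.54-fold. These last probes were dim in control RNA on all arrays. Their means on the MgSO4 arrays were 1.26, 0.84 and 1.16, and no difference between the treatments passed the test.

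Falls were smaller and often lay near background. Lypd10 had ratios of -2.53, -2.89 and -1.02 and was at least 1.25-fold lower (adjusted p = 0.0379), Agtr1b, an angiotensin receptor, ratios of -2.21, -1.39 and -1.56 and at least 1.32-fold lower (adjusted p = 0.017). Pabpc4l had ratios of -1.61, -1.12 and -2.22 and was at least 1.71-fold lower, and Srarp ratios of -1.34, -1.85 and -1.70 and at least 1.95-fold lower. Vwc2l was at least 1.32-fold lower. In all 5 the HI channel was never well above background, as in 30 of the 199 genes called lower. Such genes have only a bound.

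Slc16a4, of the monocarboxylate transporter family, had ratios of -1.78, -1.63 and -1.095 (mean -1.501, adjusted p = 0.0161), measured after HI on 1 array. Plscr2, a phospholipid scramblase, had ratios of -1.47, -1.35 and -1.35 (mean -1.39, adjusted p = 0.00522). Tfap2b, the transcription factor AP-2 beta, had ratios of -1.33, -1.37 and -1.41 (mean -1.37, adjusted p = 0.00511). Both Plscr2 and Tfap2b were well above background after HI on only 1 array. The MgSO4 arrays of Plscr2 and Tfap2b spread from -1.07 to 0.46 and from -0.66 to 1.84, and neither differed from them by the test. None of the 10 largest falls was called below MgSO4 alone at 3 h. Against all 19 MgSO4 arrays, which mix delays from 3 to 24 h, 6 were called lower (Lypd10, Agtr1b, Pabpc4l, Srarp, Sphk1 and Aurkb).

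The arrays of MgSO4 alone show how much of a ratio recurred without HI. Of the 341 genes called higher, 77 (22.6%) also had a mean ratio of 1.5-fold or more on the MgSO4 arrays, against 159 (1.09%) of all 14564 genes tested. In these 77 the median was 0.74 after HI, 0.67 after MgSO4 and 0.83 at 12 h after HI. They made up 69 of the 242 genes called higher between 1.5-fold and 2-fold, but only 8 of the 99 called at 2-fold or more. Zfp133-ps, Psme3, Nhlh1 and Il15ra had HI means of 0.80, 0.80, 0.81 and 0.78 and MgSO4 means of 0.76, 0.76, 0.79 and 0.76. All arrays had the same dye layout, so dye effects and effects of both treatments cannot be told apart in these genes. Of the genes called lower, 3 (1.51%) had a MgSO4 mean of 1.5-fold or more in the same direction, against 58 (0.398%) of all genes tested. On MgSO4 array 3, 479 of the 14564 genes carried an identical ratio of 0.29, whereas on the other 6 arrays compared here no ratio other than 0 was shared by more than 21 genes. That value is not a separate measurement of each gene. It entered the MgSO4 mean of 14 genes called higher and 23 called lower against control, among them Ier2, Zfp36, Dusp4, Dusp16, Cxcl5, Gdf15, Retnlg and Aurkb, and of 5 genes called above MgSO4.

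**Figure D5:**
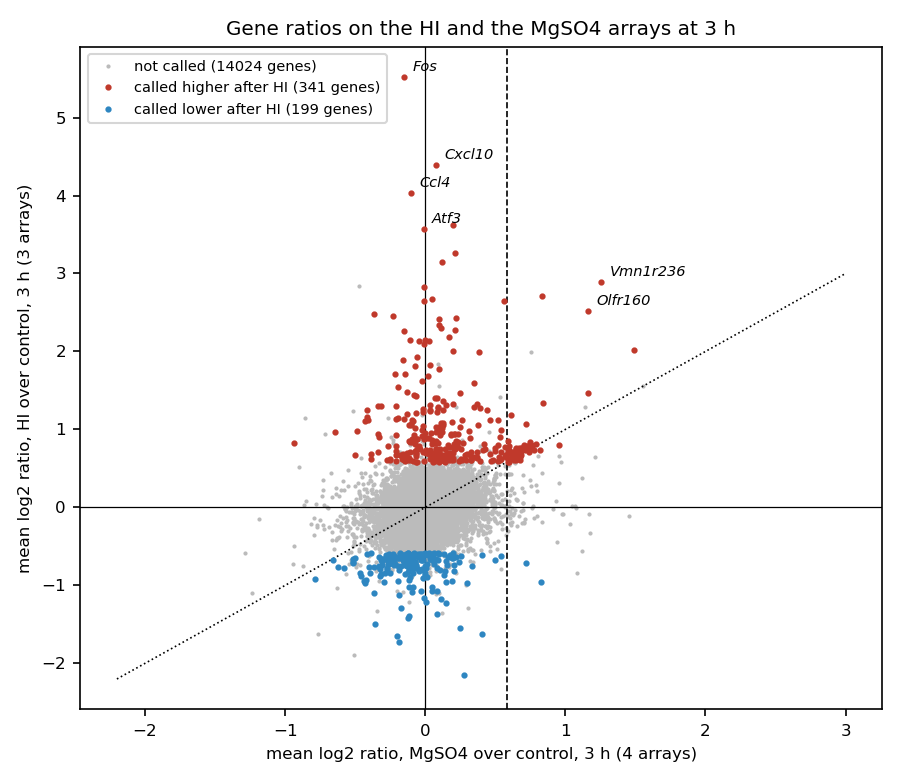
Mean log2 ratio of each gene 3 h after HI (vertical axis, 3 arrays) against that 3 h after MgSO4 alone (horizontal axis, 4 arrays). Fos, Cxcl10, Ccl4 and Atf3 lie near 0 on the horizontal axis, and the 77 genes called higher after HI to the right of the dashed line (1.5-fold) recur on the MgSO4 arrays.

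Testing the difference removes a fixed dye effect but adds any effect of MgSO4. The HI and MgSO4 arrays shared neither a slide nor a scan batch, so treatment, slide and scan cannot be told apart in this contrast. Of 25752 probes, 113 (0.439%) were called, of which 97 (0.377%) were called higher and 16 (0.0621%) lower after HI than after MgSO4 alone, that is 65 genes (0.435%) higher and 8 (0.0535%) lower. Of the 341 genes called higher against control, 57 were in this group. The largest differences were those of Fos (5.67), Cxcl10 (4.31), Ccl4 (4.13), Atf3 (3.58), Fosb (3.43), Maff (3.02) and Gem (2.84). Phox2a was called too, but its control RNA was not well above background on the HI arrays and its MgSO4 array 3 carried the shared value of 0.29, so no size is given for its difference. The number of probes called was between 17 and 63 when any array was left out, 17 without HI array 1, 42 without MgSO4 array 3, and 225 against all 19 MgSO4 arrays.

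On the low side, Ankk1 was among the 8 only through the MgSO4 arrays, since neither channel of the HI arrays was well above background and it was not tested against control. The small nucleolar RNA gene Snora74a had HI ratios of -0.64, -0.61 and -0.77 and MgSO4 ratios of 0.16 to 0.71 (difference -1.17, adjusted p = 0.0333). Gbp4, a guanylate-binding protein induced by interferon, had HI ratios of -1.03, -0.94 and -1.11 and MgSO4 ratios of -0.31 to 0.08 (difference -0.91, adjusted p = 0.0406). Tbx22, Syndig1 and Kbtbd8 had differences of -0.90, -0.87 and -0.82. Ccdc146 and AW495222 completed the 8, and both carried the shared value of 0.29 on MgSO4 array 3. Ccdc146 was also not well above background after HI on any array. For AW495222 and Tbx22 the HI means were -0.49 and -0.24 and the MgSO4 means 0.46 and 0.66.

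The later time was set beside the earlier one gene by gene. The 3 h and 12 h arrays used separate control pools. Only array 3 at 3 h and array 1 at 12 h shared a slide, so time and slide cannot be fully told apart. No probe of 25404 was called between the times (0%, lowest adjusted p 0.0554), while 826 (3.25%) were higher and 856 (3.37%) lower at 3 h when 1.5-fold was combined with a p under 0.05 before adjustment, so the values below are given side by side. Fos had ratios of 2.18, 3.84 and 2.04 at 12 h, below all 3 values at 3 h, and Fosb 0.30, 1.06 and 0.45. Egr1, Egr2 and Nr4a1 had 12 h means of 0.63, -0.11 and 0.33, and Npas4 and Arc means of -0.01 and 0.05. For Fos, Fosb, Egr1, Egr2, Nr4a1 and Arc the groups did not overlap. These genes were named for their values at 3 h, and how many of all genes lacked overlap was not counted. The list of other immediate early factors had a median of 0.09 at 12 h.

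The chemokines and interferon-induced genes were placed the other way. Ccl2 had ratios of 2.46, 3.67 and 3.41 at 12 h, Ccl12 of 1.78, 3.15 and 3.14, and Cxcl10 of 6.28, 6.27 and 4.47. Gbp2 had ratios of 0.41, -0.12 and 0.36 at 3 h and 2.13, 2.62 and 2.45 at 12 h (adjusted p = 0.0554), and Oasl2 of -0.64, -0.52 and -0.12 at 3 h and 1.68, 2.06 and 1.56 at 12 h. Ccl4, by contrast, had nearly equal means of 4.03 and 4.30. The reactive astrocyte list had a median of 0.16 at 3 h and 0.79 at 12 h, with Cd109 at 0.01 and 2.32, and the cholesterol list a median of 0.11 and -0.46, with Idi1 at 0.09 and -1.23.

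Among stress genes the distance between the times varied from gene to gene. Adm had means of 2.18 and 0.82, Vegfa of 1.09 and 0.20, Hk2 of 0.94 and 0.95, and Hspb1 of 0.75 and 0.83. Hspa1a had ratios of 0.03, 2.03 and 0.03 at 12 h, array 2 standing apart from the others. Of the 341 genes called higher at 3 h, 184 (54.0%) had a mean of 1.5-fold or more at 12 h, against 7.09% of all genes tested. Of the 199 called lower, 45 (22.6%) had one of 1.5-fold or more in the same direction, against 3.92%. Both times had the same dye layout, so dye effects and a lasting response cannot be told apart in these shares. The 341 included the 77 genes that recurred on the MgSO4 arrays, whose median at 12 h was 0.83. In a fit of its own, the 12 h comparison called 2 of 24781 probes, and 2629 passed 1.5-fold at an unadjusted p under 0.05.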

How the data were processed

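RNA pools of 6 ipsilateral hemispheres were hybridized by the authors to two-color Agilent whole mouse genome arrays. The deposited Cy3 and Cy5 intensity values were made by the authors with Agilent Feature Extraction 10.5.1.1, which subtracted background, detrended the array and normalized the dyes by linear and LOWESS steps. A deposited table of the series holds log10 ratios of the same arrays and was used as an alternative. For each probe the log2 ratio of Cy5 over Cy3 processed signal was computed here. Control spots and outlier spots were left out. A probe was tested where a channel was well above background on at least 2 of the 3 arrays, in limma 3.58.1 (R 4.3.3) against 0, with Benjamini-Hochberg adjustment over all probes tested. A call needed an adjusted p under 0.05 and 1.5-fold. The brightest probe stood for a gene. Contrasts with MgSO4 alone and with 12 h were limma fits over both groups. Scripts were tested on simulated data.

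Members, gene lists and tests were chosen with earlier results of these data known. Genes named were the 4 markers, the 20 largest rises and 10 largest falls called with 1 sign on all 3 arrays, up to 8 called members per list (the first 3 tested where fewer than 3 were called) and the 8 largest called differences per contrast and direction. Apln, Zfp133-ps, Psme3, Nhlh1, Il15ra and the gene groups of the closing section were chosen after their values were seen. Samples were grouped by their labels. The study's account of animal numbers multiplies hemispheres by time points and replicates, which implies separate animals for each replicate pool. The labels do not list the animals of each array, and MgSO4 alone has more arrays at 3 h than the replicates described. The p-values measure the spread between these arrays of pooled RNA, and 3 arrays limit the precision. Alternatives were other background and dye corrections, probe filters, shared error estimates, blocks and leaving out each array. Some members of the lists are counted but not reported here by name.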

Additional observations from a re-analysis of the deposited data

Results flagged for a closer look

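On the arrays of MgSO4 alone at 3 h, Tfap2b had 1 array far from the others. Its highest log2 ratio was 1.84, whereas the others lay between -0.66 and -0.42. It was the only 1 of 38 genes examined in this group of 4 arrays to stand apart in this way, and chance alone gives about 1 in 20. The cause was not tested.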

How the results depend on the processing

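The count of 891 probes called against control became 357 with normexp background correction and loess, 4443 with normexp and median centring, and 49 with no filter on dim probes. It was 592 with an error shared over both HI times, 535 over all 31 arrays, and 422 (chosen after seeing the data) with slide as a random block over both times. Leaving out an array gave 8 to 440, and 0 to 5 in the fit over both times. The methods' t-test called 749 unadjusted and 0 after Benjamini-Hochberg adjustment. Without the fold minimum 2928 passed (1391 higher and 1537 lower), and at 2-fold or more 201. Testing only probes with a symbol, another added setting, gave 717. Normexp with median centring moved the median of all genes to 0.34. Of the 341 genes called higher, 17 then had a negative mean, among them Zfp36, Ccl5, Retnlg, Sbno2 and Rrad. The slide as a random block could not be fitted within the 3 arrays and was not run.

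The contrast with 12 h called 0 probes, 44 with normexp and loess, and 0 to 2 when an array was left out. The contrast with MgSO4 alone called 113, 34 with no filter, 17 to 63 when an array was left out, and 225 (added after seeing the data) against all 19 MgSO4 arrays. With the replicate number as a block these contrasts called 0 and 19 probes. Deviations of arrays with the same number correlated at -0.22, -0.04 and -0.21 between HI at 3 h and 12 h, and at 0.13, 0.06 and 0.03 between HI and MgSO4, so the numbers were not taken to pair the arrays. Probes near background and the number of arrays limit what could be called.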

Other observations

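Some gene groups outside the lists were noticed after their values were seen and are given as values only. Circadian clock genes gave 6 calls among 15 tested. Nr1d1, a repressor of the clock, had ratios of 1.33, 1.46 and 1.42 (mean 1.40, limma adjusted p = 0.00518), and Ciart, Bhlhe40 and Per2 had means of 1.29, 1.12 and 0.95. Nfil3 and Per1 completed the group. Without array 1, 2 or 3 it gave 0, 4 or 2 calls. Host genes of small nucleolar RNAs gave 5 rises among 11 tested. Snhg5 had ratios of 1.32, 1.08 and 0.71 (mean 1.04), and Snhg15 and Snhg1 means of 0.95 and 0.87. Without array 1, 2 or 3 there were 0, 0 or 1.

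Of 27 cilium genes tested, 6 were called lower, led by Bbs12 (mean -0.91) and Mkks (mean -0.84), chaperonin-like proteins of the Bardet-Biedl group. Without array 1, 2 or 3 there were 0, 4 or 1. With normexp and median centring the group median was 0.19, where that of all genes was 0.34. All 6 stefin A genes tested were called higher, but they are near-identical copies whose probes may read each other, and without array 1 or 3 none was called. Of 40 genes with interferon-related symbols, 8 were called lower and 1 higher, with Gbp4 at -1.03 and Rtp4 at -0.84, and with loess on the unprocessed signals no fall was called.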
